A study of Homo sapiens with 59 samples.

Results

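Messenger RNA of 9 secreted WNT antagonists was followed in human neural stem cells made with different lengths of exposure to a WNT-activating drug. The genes were SFRP1, SFRP2, SFRP5, FRZB, DKK1, DKK2, DKK3, WIF1 and NOTUM. They were chosen by name, as the rows of the expression table with these symbols, and all 9 were found among the 19084 symbols listed.

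WNT proteins are lipid-modified signals that bind Frizzled receptors and the co-receptors LRP5 and LRP6, which stabilises beta-catenin and switches on target genes. Secreted antagonists act outside the cell at separate steps of this chain. SFRP1, SFRP2, SFRP5 and FRZB (also called sFRP3) carry a Frizzled-like domain and bind WNT proteins, WIF1 binds WNT proteins through a domain of its own, DKK1 and DKK2 bind LRP5 and LRP6, and NOTUM removes the lipid from WNT proteins. DKK3 is a divergent member of the DKK family. In the vertebrate neural tube, WNT signals pattern the dorsal and posterior parts, and SFRP genes are known from neural progenitors of mouse and chick embryos.

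The series holds 59 RNA-seq libraries made from the established human embryonic stem cell line WA09 (H9), and the labels name no genetic change in any group. Every culture went through Essential 6 medium, FGF8b at 200 ng/mL, a passage with the ROCK inhibitor Y27632, neuromesodermal progenitor medium with CHIR99021, and 4 days of retinoic acid in neural stem cell medium before lysis. CHIR99021 inhibits GSK3 inside the cell and so activates canonical WNT signalling below the step at which these antagonists act. The groups differ in the hours of CHIR99021, every 2 h between 2 and 24 h and every 6 h between 30 and 72 h. The 20 times have 3 libraries each (A1, A2 and B1), apart from 48 h, where the submitters removed B1. Longer CHIR99021 also meant longer culture, and no arm without CHIR99021 was analysed here. All RNA was collected after the retinoic acid step, so the values describe the neural stem cells and not cells still in CHIR99021.

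The number of genes reaching 1 TPM ran between 9348 and 13085 per library, and 3 libraries had under 10000 (4 h B1, 42 h B1 and 72 h A2). TPM keeps no sequencing depth, so the depth behind each value is unknown. The neural progenitor genes CDH2, PAX6 and NES were above 0 TPM in all 59 libraries, SOX2 was above 0 in 58 and SOX1 in 56. The pluripotency gene POU5F1 was above 0 in 57 libraries, with a median of 11.7 TPM. In bulk RNA, fewer cells of a type and less RNA per cell cannot be told apart.

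Tests used limma on log2(TPM + 1) across the 15305 genes that reached 1 TPM in 3 or more libraries, with Benjamini-Hochberg adjustment and a threshold of 0.05. A test of change over the whole course used a spline of hours. Window differences set 54 to 72 h (late), 30 to 48 h (middle), 18 to 24 h (first day) and 2 to 8 h (early) against each other, with 12 libraries in each window and 11 in the middle one. Differences are given on the log2(TPM + 1) scale, which understates the change of low genes. Of the 9 genes, 8 passed the filter on low values and DKK2 did not. Whether A1, A2 and B1 came from separate cultures is not labelled, and the p-values therefore cover only library-to-library spread, part or all of which may be technical.

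Levels of the 9 genes spanned a wide range. SFRP2 was the highest, with a median of 287.5 TPM over the 59 libraries, followed by SFRP1 at 60.3, SFRP5 at 53.0, FRZB at 41.2 and DKK3 at 19.1 TPM. SFRP1, SFRP2 and FRZB were above 0 in every library, DKK3 in 58 and SFRP5 in 56. WIF1 was above 0 in 30 libraries, NOTUM in 16, DKK1 in 8 and DKK2 in 6.

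Over the whole course, 5 of the 8 tested genes changed, namely SFRP1, SFRP2, SFRP5, DKK1 and WIF1, where 36.8% of all tested genes did. DKK1 entered the tested set only through libraries of 2 to 16 h, which held all 7 of its values of 1 TPM or more, so a lower level later followed from the filter. With a filter of 1 TPM in 10 or more libraries DKK1 was not tested, and the count was 4 over the course and 3 lower in each of late and first day against early libraries. FRZB (adjusted p = 0.172, limma), DKK3 (0.741) and NOTUM (0.613) did not pass. In late against early libraries, 1 gene was higher (SFRP1) and 4 were lower (SFRP2, SFRP5, DKK1 and WIF1), where 14.3% of all tested genes were higher and 15.8% lower. In the first day against early libraries, FRZB alone was higher and SFRP2, SFRP5, DKK1 and WIF1 were lower, where 10.5% of all tested genes were higher and 9.45% lower. In late against first-day libraries, SFRP1 and SFRP2 were higher and SFRP5 was lower, where 5.43% of all tested genes were higher and 7.08% lower. In middle against first-day libraries, SFRP2 was higher and none of the 8 was lower, where 0.451% of all tested genes were higher and 1.11% lower. The median difference of all tested genes lay between -0.042 and 0.010 in these 4 window comparisons.

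**Figure D1:**
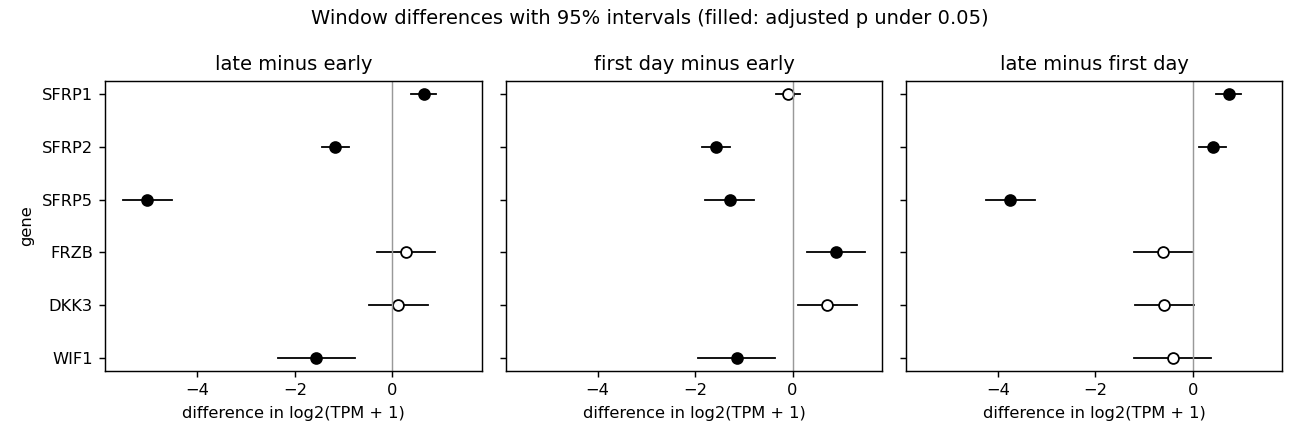
Differences in log2(TPM + 1) between windows for 6 of the antagonists, with 95% intervals from limma; filled points passed an adjusted p of 0.05 and open points did not. SFRP5 had the largest difference of the 6 in late minus early, -5.04, and SFRP1 was the gene with a positive called difference there, 0.64.

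SFRP5, a WNT-binding antagonist known in mouse embryos from the foregut endoderm, fell over the course. Its time-point means were 166.4 TPM at 2 h, 95.6 at 10 h, 55.3 at 24 h, 26.1 at 48 h, 13.7 at 54 h and 1.19 at 72 h. The 3 libraries of 72 h held 2.78, 0 and 0.79 TPM in A1, A2 and B1, against 159, 179 and 162 TPM in those of 2 h. The mean at 12 h was 37.0% of that at 2 h, and the mean at 72 h was 0.715% of it.

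Between windows, SFRP5 ranged over 0, 3.85 and 15.1 TPM in late libraries (lowest, median and highest), against 88.5, 138.7 and 195 TPM in early libraries. The groups did not overlap, and the highest late library was far under the lowest early one. The late minus early difference was -5.04 (SE 0.25, 95% interval -5.54 to -4.53, limma adjusted p = 4.428e-21). The fall was already present in the first day, at 56.6 ± 17.6 TPM against 138.1 ± 33.3 TPM in early libraries (SD, n = 12 each), a difference of -1.29 (SE 0.25, limma adjusted p = 0.0001052). With a pseudocount of 0.1 TPM the first-day call was lost (limma adjusted p = 0.0554). In middle libraries SFRP5 was at 30.8 ± 7.98 TPM (SD, n = 11), against 56.6 TPM in first-day ones, which did not pass (-0.86, limma adjusted p = 0.0746). That middle difference passed when any one of 6 libraries was left out (42 h A2, 60 h A1, 60 h B1, 66 h A1, 66 h B1 or 72 h A2), with limma adjusted p between 0.0102 and 0.0499. The named libraries of 60, 66 and 72 h lie in neither window. Leaving them out kept the difference at -0.86 and moved only its p-value, through the spread estimate shared by all times. From the first day to the late window the difference was -3.74 (SE 0.25, limma adjusted p = 3.945e-16).

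Single libraries of SFRP5 stood above the others of their time at 8 h, with 195 TPM in B1 and 108 and 88.5 TPM in A1 and A2, and at 24 h, with 84.1 TPM in A1 and 41.9 and 39.8 TPM in A2 and B1. At 60 and 66 h the libraries also spread, with 4.91, 1.48 and 0 TPM at 60 h and 12.5, 4.95 and 0 TPM at 66 h in A1, A2 and B1. B1 was at 0 at both of these times.

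The 3 tested genes with the most similar course to SFRP5 over the 20 time-point means of log2(TPM + 1) were FZD5 (Pearson r = 0.988), SEMA4G (0.964) and HMOX1 (0.957), chosen as the highest of all candidates. FZD5 encodes a Frizzled receptor for WNT proteins, SEMA4G a semaphorin and HMOX1 the heme-degrading enzyme heme oxygenase. FZD5 was at 118 ± 37.8 TPM in early, 87.8 ± 27.8 TPM at 10 to 16 h, 49.2 ± 12.9 TPM in first-day, 31.9 ± 13.0 TPM in middle and 5.93 ± 5.53 TPM in late libraries (SD, n = 12, middle 11). These correlations are over times and are given as a description.

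Markers of other cell types were also lower in late against early libraries. All 10 markers of surface ectoderm and epithelium and all 8 tested endoderm markers were lower in late than in early libraries. The summed level of the 10 epithelial markers was 447 to 759 TPM in late libraries and 1177 to 3491 TPM in early ones, and CLDN7, ESRP1 and GRHL2 were listed at 0 in every late library. The 9 endoderm markers summed to 46.8 to 148 TPM in late and 208 to 645 TPM in early libraries, with GATA4, AFP and TTR at 0 in every late library and SOX17 at 0 in all 59. In first day minus early, all 10 epithelial and 5 of 8 endoderm markers were lower. In late minus first day, 1 of 10 epithelial markers (TFAP2A) was lower, with a median of -0.26 for that list, and the SFRP5 difference was -3.74. The median summed level of the epithelial markers was 606 TPM in the first day, 411 TPM in the middle window and 509 TPM in late libraries. SFRP5 averaged 56.6, 30.8 and 5.70 TPM in these windows. In late libraries CDH1 averaged 0.671 TPM and TFAP2A 0.298 TPM, so other members of the list made up most of the late sum. The part of these cell types in the fall of SFRP5 was not tested.

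SFRP2, a WNT-binding antagonist, was the most abundant of the 9, with its highest means at 6 and 54 h, then at 4 and 30 h. Its time-point means were 431.9 TPM at 2 h, 587.8 at 4 h, 767.6 at 6 h, 438.3 at 8 h, 446.6 at 10 h and 152 at 22 h. Later means were 496.5 TPM at 30 h, 214.8 at 42 h, 626.8 at 54 h, 219.4 at 60 h and 109.9 at 72 h. The times 6, 30 and 54 h are spaced by 24 h. The 3 libraries of 6 h were the highest 3 of all 59, those of 54 h were among the highest 9, and those of 30 h ranked between 7 and 22. At 4 h, A1 and A2 held 705.5 and 672.6 TPM, and 6 h was not tested against its neighbours.

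At 30 h, SFRP2 was at 640, 349 and 500 TPM in A1, A2 and B1, against 278, 211 and 204 TPM at 24 h and 289, 370 and 263 TPM at 36 h. One library of 30 h lay under the highest of 36 h, so these groups overlapped. The comparison of 30 h with its 2 neighbouring times was added after the values had been seen, and gave 0.87 (SE 0.24, limma adjusted p = 0.0260), where 2.55% of all tested genes were higher and 1.95% lower. The call was lost without any one of 24 h A2, 24 h B1, 30 h A1, 30 h B1 or 36 h B1 (limma adjusted p between 0.0510 and 0.215).

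At 54 h, SFRP2 was at 610, 642 and 628 TPM in A1, A2 and B1, against 244 and 229 TPM in A1 and A2 of 48 h and 195, 251 and 213 TPM at 60 h. All 3 libraries of 54 h were above every library of 48 and 60 h. The difference from these neighbours, also added after the values had been seen, was 1.46 (SE 0.25, limma adjusted p = 6.999e-05), where 6.54% of all tested genes were higher and 1.81% lower. Over all tested genes the median of this difference was 0.10 with TPM as deposited and -0.015 after median-ratio scaling, with which SFRP2 stood at 1.25 (limma adjusted p = 0.0003119). The split of called genes at 54 h was 1001 higher and 277 lower as deposited, 590 and 579 after median-ratio scaling and 706 and 549 after quantile normalization. At 30 h it was 390 higher and 298 lower as deposited, 348 and 398 after median-ratio scaling and 391 and 475 after quantile normalization. The step of SFRP2 at 54 h minus that at 30 h was 0.59, with a 95% interval of -0.11 to 1.30 (limma adjusted p = 0.940), so a difference between the 2 steps was not shown.

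**Figure D2:**
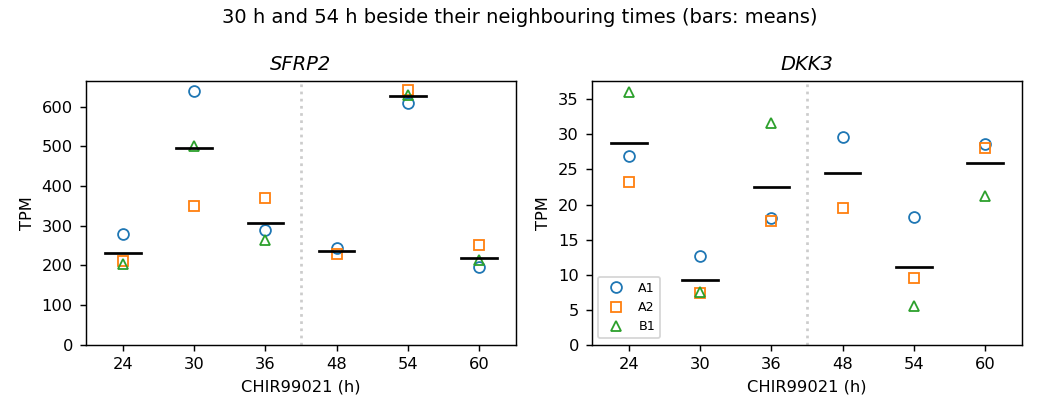
TPM of SFRP2 (left) and DKK3 (right) in each library at 30 h and 54 h and at the times on either side, with bars at the means. SFRP2 stood at 496.5 TPM at 30 h and 626.8 TPM at 54 h, above its neighbouring means, and DKK3 at 9.22 and 11.1 TPM, below them.

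Of the 4 window results for SFRP2, 2 kept their call without the 6, 30 and 54 h times and 2 lost it. The late libraries held 49.7, 231.8 and 642 TPM (lowest, median and highest), against 315, 528 and 781 TPM in early libraries. The groups overlapped only through the 54 h libraries, since the highest late library outside 54 h held 302.3 TPM, under the lowest early one. The late minus early difference was -1.17 (SE 0.14, limma adjusted p = 3.742e-09), and -1.46 without the 6, 30 and 54 h times (limma adjusted p = 6.241e-09). When 54 h was set against 6 h, a whole number of days apart, the difference was -0.29 and did not pass (limma adjusted p = 0.733).

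First-day libraries held 130.3, 176 and 278 TPM of SFRP2 (lowest, median and highest), all under every early library. The first day minus early difference was -1.57 (SE 0.14, limma adjusted p = 3.134e-12), and -1.40 without the 6, 30 and 54 h times (limma adjusted p = 1.137e-08). The middle window averaged 320.8 ± 138.6 TPM (n = 11) against 181.5 ± 39.6 TPM in the first day (SD, n = 12), a difference of 0.72 (limma adjusted p = 0.002027), and the call was lost without the 6, 30 and 54 h times (0.48, limma adjusted p = 0.182). In late minus first day SFRP2 was higher by 0.41 (SE 0.14, limma adjusted p = 0.0448), a value that turned to -0.060 without those times. Without 54 h, the late libraries averaged 189.9 ± 78.0 TPM (SD, n = 9). Leaving out one library ended the late minus first day call for 17 of the 24 libraries concerned, all but 18 h A2, 20 h A1, 22 h A1, 24 h A1, 60 h A1, 66 h B1 and 72 h A2, with differences of 0.31 to 0.41 and limma adjusted p up to 0.113.

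The genes with the most similar course to SFRP2 were SCO1 (r = 0.898 over 20 times), which helps assemble cytochrome c oxidase, SLC16A1 (0.897), a monocarboxylate transporter, and CCDC97 (0.884).

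SFRP1, a WNT-binding antagonist of neural progenitors, was the 1 antagonist of the 8 tested that was called higher in late against early libraries. Its means were 88.3 TPM at 2 h, 48.9 at 10 h, 68.6 at 24 h, 66.4 at 48 h, 89.4 at 54 h, 106 at 60 h, 153 at 66 h and 75.4 at 72 h. The libraries of 66 h held 191, 111 and 158 TPM in A1, A2 and B1, and those of 72 h held 109.5, 37.7 and 78.8 TPM. The low library at 72 h is A2, 1 of the 3 with under 10000 genes.

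Late libraries held 37.7, 104.9 and 191 TPM of SFRP1 (lowest, median and highest), against 38.8, 64.5 and 103.9 TPM in early libraries. The groups overlapped, with 6 of the 12 late libraries above the highest early one. The difference was 0.64 (SE 0.13, 95% interval 0.39 to 0.90, limma adjusted p = 6.182e-05). It was 0.44 and did not pass with windows of 66 and 72 h against 2 and 4 h (limma adjusted p = 0.0629). Against the first day, at 61.4 ± 17.7 TPM, the late libraries at 106 ± 39.3 TPM (SD, n = 12 each) were higher by 0.74 (SE 0.13, limma adjusted p = 1.961e-05). The first day did not pass against early libraries (-0.092, 95% interval -0.34 to 0.16, limma adjusted p = 0.681). NEBL (r = 0.842), a nebulin-like actin-binding protein, MCC (0.842) and DPYSL3 (0.832), which acts in axon growth, had the most similar courses over the 20 times.

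FRZB, a WNT-binding antagonist first known from cartilage, was higher in first-day than in early libraries. Its means were 46.5 TPM at 2 h, 22.8 at 10 h, 55.7 at 12 h, 70.2 at 20 h, 31.0 at 30 h, 22.7 at 60 h and 55.1 at 72 h. First-day libraries held 25.5, 52.8 and 85.4 TPM (lowest, median and highest), against 1.44, 36.9 and 61.1 TPM in early libraries. The groups overlapped over most of the early range. The difference was 0.89 (SE 0.30, limma adjusted p = 0.0254). The call was lost without 4 h B1, the library at 1.44 TPM and 1 of the 3 with under 10000 genes (0.54, limma adjusted p = 0.0671), and without 8 h A2 (0.78, limma adjusted p = 0.0597).

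Late FRZB averaged 39.1 ± 21.6 TPM, against 34.8 ± 16.2 TPM in early libraries (SD, n = 12 each), and did not pass (0.27, 95% interval -0.32 to 0.87, limma adjusted p = 0.532). Late minus first day was -0.62 (limma adjusted p = 0.185), and passed without 4 h B1 (limma adjusted p = 0.0365). That library lies in neither window, and the difference stayed at -0.62 without it, so only the p-value moved. At 72 h the libraries held 87.7, 11.9 and 65.8 TPM in A1, A2 and B1, so 1 time spanned nearly the whole range of the course. The closest courses were those of COMMD3-BMI1 (r = 0.722), TMED1 (0.721) and ZNF175 (0.707), lower correlations than for SFRP5.

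**Figure D3:**
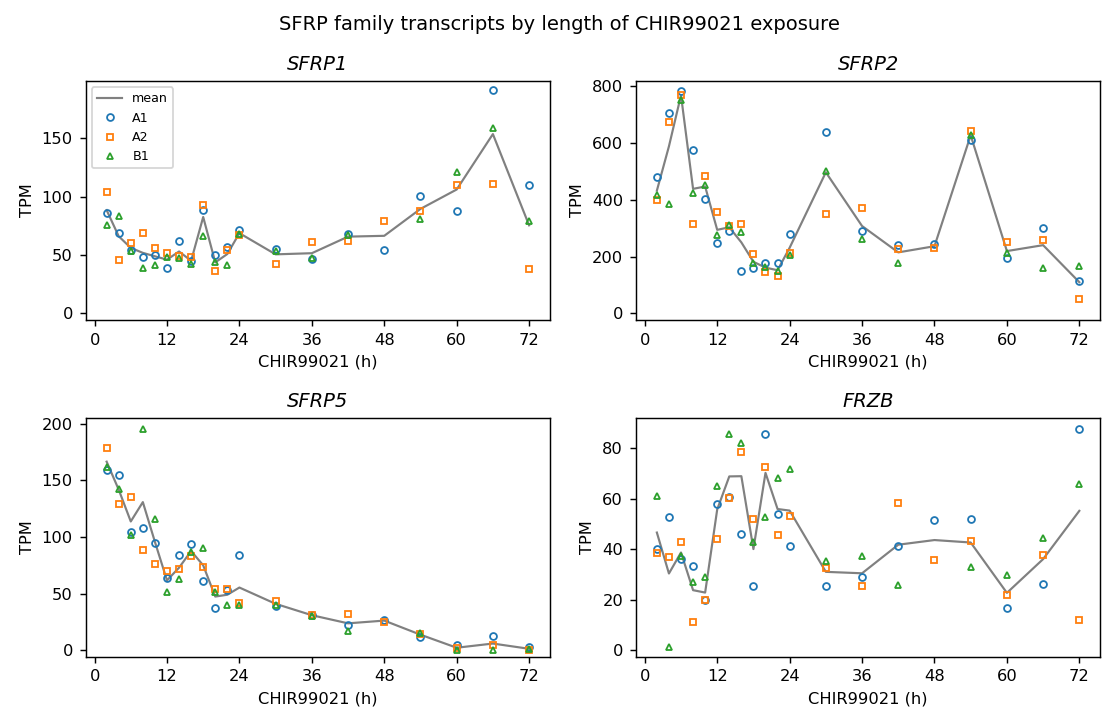
TPM of the 4 SFRP family genes in each library (A1 circles, A2 squares, B1 triangles) against hours of CHIR99021, with lines through the means. SFRP5 went to 1.19 TPM at 72 h, SFRP2 had its highest means at 4, 6, 30 and 54 h, SFRP1 peaked at 153 TPM at 66 h and FRZB at 70.2 TPM at 20 h.

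The summed level of the 4 genes was 449.9 ± 218 TPM in late libraries, against 794.9 ± 165 TPM in early libraries (SD, n = 12 each). It spanned 99.3 to 787 TPM in late and 483.5 to 1008 TPM in early libraries, so the groups overlapped. The share of SFRP5 in that sum was 1.00 ± 0.859% in late and 18.1 ± 5.82% in early libraries. SFRP1 made up 27.5 ± 10.9% in late and 8.78 ± 3.74% in early libraries, and SFRP2 61.2 ± 14.7% in late and 68.8 ± 8.68% in early libraries. FRZB made up 10.3 ± 7.31% in late and 4.28 ± 1.96% in early libraries, and reached 16.0 ± 5.61% in the first day. The sum and these shares were not tested, and they follow from the levels above.

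**Figure D4:**
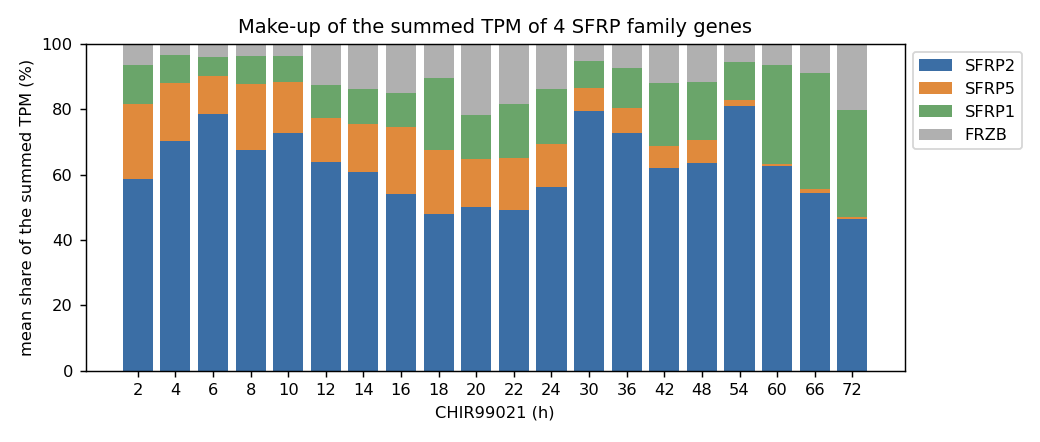
Mean share of each gene in the summed TPM of SFRP1, SFRP2, SFRP5 and FRZB at each time. SFRP2 was the largest share at every time, and the share of SFRP5 averaged 18.1% in early and 1.00% in late libraries.

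DKK1 blocks the WNT co-receptors and is itself a known target of beta-catenin. It was listed at 0 in all 35 libraries of 18 to 72 h, and was above 0 in 8 of the 24 libraries of 2 to 16 h, at up to 4.83 TPM. The highest were 6 h B1 at 4.83 TPM, 10 h A2 at 4.50 TPM and 6 h A2 at 3.43 TPM. Late libraries were all at 0, against 6 of 12 early libraries above 0. The limma adjusted p was 0.005991 for late and 0.009307 for first-day against early libraries, but DKK1 was tested only because of its early values, so these calls are given as a description of where it was listed above 0. No fold change is given, because the later group is at 0. The late minus early call was lost when all libraries of A2 were left out (limma adjusted p = 0.0670), without the 6, 30 and 54 h times (0.0812) and with windows of 66 and 72 h against 2 and 4 h (0.191). The first day minus early call was lost without all libraries of A2 (limma adjusted p = 0.0916) or of B1 (0.0504), without the 6, 30 and 54 h times (0.0922), with windows of 22 and 24 h against 2 and 4 h (0.283) and for 30 against 6 h (0.0611).

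WIF1 was above 0 in 1 of 12 late libraries, at 2.98 TPM, and in 10 of 12 early libraries, at up to 20.4 TPM. The late minus early difference was -1.56 (SE 0.39, limma adjusted p = 0.001736), and without all libraries of A2 the call was lost (limma adjusted p = 0.0526). The high value was 8 h A2 alone, with 1.67 and 0 TPM in the A1 and B1 libraries of that time. The first day minus early difference, -1.15 (limma adjusted p = 0.0322), lost its call without any one of 9 libraries (4 h A1, 4 h A2, 6 h B1, 8 h A2, 18 h A1, 18 h B1, 20 h A2, 22 h A1 or 22 h A2), with limma adjusted p of at least 0.0515. Over the 20 times WIF1 correlated with ATP6V0C (r = 0.893), NCCRP1 (0.847) and RFX6 (0.837), with the highest time-point mean, 7.35 TPM at 8 h, set by 1 library.

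NOTUM, a WNT-deacylating enzyme, was above 0 in 3 of 12 late libraries, at up to 3.35 TPM, and in 5 of 12 early libraries, at up to 3.59 TPM. The difference did not pass (-0.18, 95% interval -0.79 to 0.42, limma adjusted p = 0.696). DKK2 was above 0 in 2 of 12 late libraries and 1 of 12 early ones, with a highest value of 1.8 TPM at 72 h A1, and was not tested.

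DKK3 was the DKK family member present in nearly every library. Its means were 23.4 TPM at 2 h, 11.5 at 8 h, 28.8 at 24 h, 9.22 at 30 h, 22.5 at 36 h, 24.5 at 48 h, 11.1 at 54 h, 26.0 at 60 h, 34.5 at 66 h and 16.3 at 72 h. The libraries of 30 h held 12.7, 7.41 and 7.59 TPM in A1, A2 and B1, against 27, 23.2 and 36.1 TPM at 24 h and 18.1, 17.7 and 31.6 TPM at 36 h. Those of 54 h held 18.2, 9.48 and 5.60 TPM, against 29.6 and 19.5 TPM in A1 and A2 of 48 h and 28.6, 28.1 and 21.2 TPM at 60 h. Every library of 30 h and of 54 h was under every library of its neighbouring times. SFRP2 was high at both times and also at 6 h, where DKK3 averaged 12.4 TPM, between 14.4 TPM at 4 h and 11.5 TPM at 8 h.

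Neither dip of DKK3 passed, at -1.37 (SE 0.52, limma adjusted p = 0.144) for 30 h and -1.24 (limma adjusted p = 0.172) for 54 h. Leaving out 72 h A2, the library with under 10000 genes in which DKK3 was listed at 0, left both differences as they were and moved their limma adjusted p to 0.006374 and 0.0130. Late DKK3 averaged 22.0 ± 15.3 TPM, against 15.4 ± 6.41 TPM in early libraries (SD, n = 12 each), a difference of 0.13 (95% interval -0.48 to 0.73, limma adjusted p = 0.8003) that was 0.51 without 72 h A2 (limma adjusted p = 0.0422) and -0.11 without 72 h A1. The first day was at 24.7 ± 5.84 TPM (SD, n = 12) and did not pass against early libraries (0.72, limma adjusted p = 0.0899). It passed without 72 h A2 (limma adjusted p = 0.004415), a library in neither window, with the difference still at 0.72. PLS1 (r = 0.874), an actin-bundling protein, PGAM1 (0.858), a glycolytic enzyme, and LLGL1 (0.834) had the most similar courses.

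**Figure D5:**
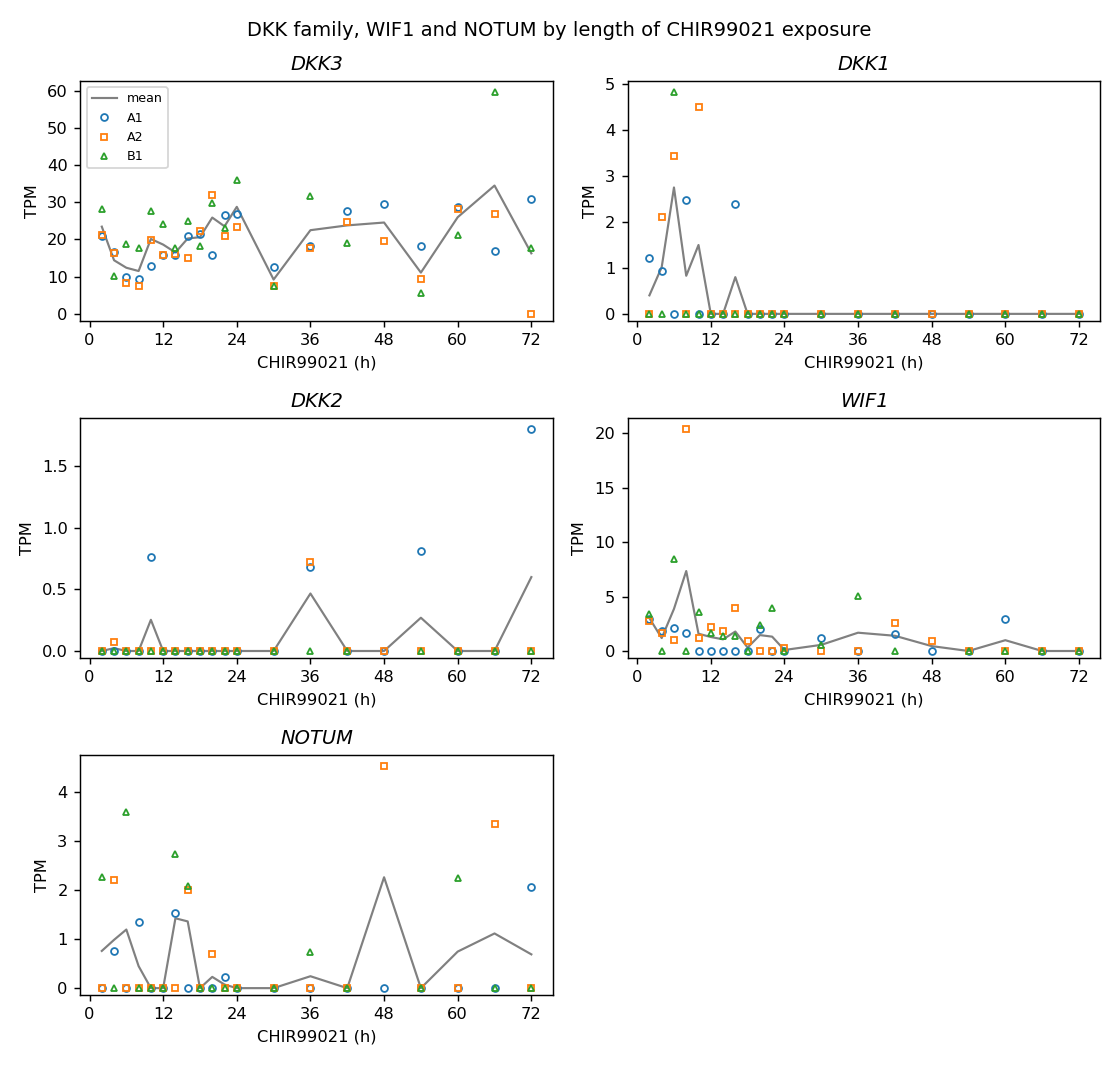
TPM of DKK3, DKK1, DKK2, WIF1 and NOTUM in each library against hours of CHIR99021, with lines through the means; each panel has its own axis. DKK1 was listed at 0 in all 35 libraries of 18 to 72 h, and DKK3 was low at 30 h (9.22 TPM) and 54 h (11.1 TPM).

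The 250 bases before the annotated gene start were at hand for 5 of the 9 genes (DKK1, FRZB, SFRP2, SFRP5 and WIF1), from RefSeq on GRCh38.p14, whereas the expression values were made on hg19. They were searched on both strands for CTTTGA, the core of TCF/LEF sites at which beta-catenin acts, for AGGTCA, a retinoic acid receptor half-site, and for ACGTG, the core of hypoxia response elements. The promoters of DKK1, SFRP2 and SFRP5 are shown, with matches to CTTTGA in capitals. They were picked because DKK1 was above 0 only early, SFRP2 had high means again at 30 and 54 h and SFRP5 fell. DKK1 lies at chr10:52314031-52314280 on the plus strand, SFRP2 at chr4:153789084-153789333 and SFRP5 at chr10:97772000-97772249, both on the minus strand.
DKK1: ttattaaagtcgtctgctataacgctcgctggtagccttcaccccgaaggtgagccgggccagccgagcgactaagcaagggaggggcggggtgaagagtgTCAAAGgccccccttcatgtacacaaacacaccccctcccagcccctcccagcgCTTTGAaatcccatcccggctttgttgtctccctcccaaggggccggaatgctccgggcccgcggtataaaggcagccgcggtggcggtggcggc
SFRP2: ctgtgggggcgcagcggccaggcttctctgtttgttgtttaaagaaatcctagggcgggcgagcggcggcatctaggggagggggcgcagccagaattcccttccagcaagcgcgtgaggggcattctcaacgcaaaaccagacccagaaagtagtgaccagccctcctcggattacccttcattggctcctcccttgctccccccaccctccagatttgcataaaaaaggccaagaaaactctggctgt
SFRP5: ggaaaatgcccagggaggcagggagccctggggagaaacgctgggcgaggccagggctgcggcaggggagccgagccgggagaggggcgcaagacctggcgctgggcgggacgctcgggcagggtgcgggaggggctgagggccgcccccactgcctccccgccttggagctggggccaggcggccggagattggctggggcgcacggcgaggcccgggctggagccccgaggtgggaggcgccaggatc
DKK1 had 2 matches to CTTTGA, 1 on each strand, and none of the other 2 motifs. The other 4 promoters had no match to any of the 3 motifs. Among 35116 promoters of the same length, 11.2% held CTTTGA, 12.1% AGGTCA and 18.5% ACGTG. A match is not a shown site, and its absence concerns only these letters in these windows. The GC content was 62.8% for DKK1, 57.6% for SFRP2 and 76.8% for SFRP5, with a median of 58.0% over all promoters.

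Other genes of the pathway were set beside the 9 antagonists from lists of known components, in late against early libraries. Over all tested genes 14.3% were higher and 15.8% lower, and with lists this short the counts below are given as a description. Of 9 tested other extracellular WNT inhibitors, 3 were higher in late than in early libraries (APCDD1, C2orf89 and KREMEN2) and 1 was lower (SOSTDC1), with a median difference of 0.47, against -0.042 for all tested genes. SOSTDC1, an LRP5 and LRP6 antagonist, was at 3.96 ± 3.84 TPM in late and 53.2 ± 26.5 TPM in early libraries. APCDD1, a membrane-bound WNT inhibitor, went the other way, with 42.2 ± 21.4 TPM in late and 3.54 ± 4.82 TPM in early libraries (SD, n = 12 each). SFRP4, the remaining SFRP gene, had its highest mean at 30 h, 41.9 TPM, and was higher in the first day than in early libraries. It was lower in late than in first-day libraries, at 2.1 ± 2.8 and 10.7 ± 4.7 TPM (SD, n = 12 each). In late against early libraries SFRP4 was not called.

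Of 15 WNT receptor genes, 8 were higher and 3 lower in late libraries, with a median of 0.59. The lower share, 3 of 15, is near that of all tested genes, and the 3 were FZD4, FZD5 and FZD8. FZD5 stood at 5.93 ± 5.53 TPM in late and 118 ± 37.8 TPM in early libraries (difference -4.48), FZD4 at 8.45 ± 2.29 and 50.8 ± 14.4 TPM, and FZD8 at 3.98 ± 3.73 and 15.2 ± 6.77 TPM. FZD10 was at 41.7 ± 21.5 TPM in late and 3.29 ± 2.13 TPM in early libraries.

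Among 15 tested WNT ligands, 9 were higher and 3 lower, with a median of 0.72. WNT1, a dorsal midline signal, was at 97.7 ± 31.1 TPM in late and 15.5 ± 13.0 TPM in early libraries, and WNT3A at 55.5 ± 17.5 TPM in late and 9.95 ± 4.94 TPM in early libraries. WNT9B ran the other way, at 0.338 ± 0.804 TPM in late and 9.60 ± 7.99 TPM in early libraries. Of 12 feedback genes and targets of beta-catenin, 5 were higher and 0 lower, with a median of 0.36, and LEF1, a partner of beta-catenin on DNA, was at 32.1 ± 12.0 TPM in late and 5.56 ± 3.72 TPM in early libraries.

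Of 7 tested R-spondin and receptor turnover genes, LGR5 was higher, a share equal to that of all tested genes, and LGR4, LGR6 and RNF43 were lower, with a median of -0.21. Of 6 genes of WNT acylation and secretion, the glypican GPC4 was higher and PORCN, which attaches the lipid to WNT proteins, and GPC6 were lower, with a median of -0.19. Neural markers were read in the same comparison. Of 10 neuron markers 9 were higher in late libraries and none lower. Of 10 neural progenitor markers 7 were higher and 2 lower (PAX6 and CDH2). The summed level of the progenitor markers had a median of 2307 TPM in late libraries (1635 to 2695) and 2846 TPM in early ones (1675 to 3544). The 8 roof plate and dorsal markers, which include WNT1 and WNT3A, summed to 259 to 549.6 TPM in late and 50.6 to 258.7 TPM in early libraries, with 6 of 8 higher. Their part in the differences of the antagonists was not tested.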

How the data were processed

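RNA-seq was done on 59 libraries of neural stem cells from the WA09 line, with oligo-dT selection, ligated adapters and 51 bp single reads, per the labels' protocols. The authors deposited TPM of 19084 gene symbols, and these were used as they stand. Per the submitters' processing notes, the tools were CASAVA 1.8.2, Bowtie 0.12.8 and RSEM 1.2.3, and the build was hg19; which annotation was used is not given there. Every library summed to between 999997 and 1000001 TPM, so depth is unknown and no counting interval is given.

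The genes, lists and comparisons were chosen with earlier results of these data known. Tests used limma 3.58.1 in R 4.3.3 with an intensity trend on log2(TPM + 1), for the 15305 genes that reached 1 TPM in 3 or more libraries. Change over the course was tested with an F-test of a 4 df natural spline, and the windows were contrasts of 20 time-point means with 39 residual df. The 30 h and 54 h comparisons were added after the values were seen. The tests were tried on simulated data. The genes named were the 9 antagonists, up to 3 called members per list with the largest late minus early difference and a mean of 5 TPM or more in 1 window, any member of the first 3 pathway lists in a count of 5 or fewer, and the 3 tested genes with the highest Pearson correlation with each antagonist that reached a mean of 5 TPM. SFRP4 and the members of counts of 5 or fewer in other lists were named after their values were seen. Promoters were read from RefSeq on GRCh38.p14. Alternatives varied the pseudocount, filter, scaling, spline, windows and times, added a replicate block, and left out libraries. Python 3.11.15 with matplotlib 3.10.9 drew the figures.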

Additional observations from a re-analysis of the deposited data

How the results depend on the processing

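Of 346 pairs of a result for 1 antagonist and an alternative, 301 kept their direction and side of the threshold, and so did 1899 of 1947 with 1 library left out. Both totals take in DKK1 and results that were not called. The second also takes in libraries outside the times compared, so it says little of how firm a call is. For SFRP2 at 30 h, 54 of 59 kept the call, and the 5 that ended it were all of 24, 30 and 36 h. Same-label libraries did not deviate together over all tested genes (median correlation 0.0049, with 1.45% of 551 pairs over 0.1, against 1.18% of other-label pairs). Pairs of A1 with A2 counted as other-label pairs, so a difference of A from B was not tested. With a replicate block all 33 of these results kept their call, and the late minus early calls over all genes were 4610, against 4606 without it.

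DKK1 was tested only because of its early values, and it can enter the course count and the lower counts against early libraries given here. Over the course, 3 antagonists changed without the 6, 30 and 54 h times. In late minus early, 0 were higher with windows of 2 times. With single times whole days apart (54 against 6 h), 0 were higher and 2 lower, and 1063 genes were called in all. In first day minus early, 2 were higher with a pseudocount of 5 TPM, quantile normalization or without the 3 libraries under 10000 genes, and 0 with windows of 2 times or 30 against 6 h. The lower count was 2 with a pseudocount of 0.1 TPM, without the 6, 30 and 54 h times or with windows of 2 times, and 0 for 30 against 6 h. All genes called were then 1802 with windows of 2 times and 594 for 30 against 6 h. In late minus first day, 1 was higher with a pseudocount of 0.1 TPM, no filter, quantile normalization, windows of 2 times or without the 6, 30 and 54 h times, and 0 higher and 0 lower for 54 against 30 h, where 182 genes were called in all. In middle minus first day, 0 were higher without the 6, 30 and 54 h times or with windows of 2 times (125 genes in all), and 1 was lower with a pseudocount of 5 TPM or quantile normalization. Without the 3 libraries under 10000 genes, all genes called were 2873 in late minus first day, 466 in middle minus first day, 1707 at 30 h and 2598 at 54 h, and 1 antagonist (DKK3) was lower at 30 h and at 54 h.

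Directions turned for DKK3 in late minus early (-0.12 with a pseudocount of 0.1 TPM, -0.24 with windows of 2 times, -0.21 for 54 against 6 h), in first day minus early (-0.35 for 30 against 6 h) and in late minus first day (0.14 for 54 against 30 h). They turned for FRZB in first day minus early (-0.32) and late minus first day (0.44) with times whole days apart, and for SFRP2 in late minus first day (-0.060 without the 6, 30 and 54 h times, -0.30 with windows of 2 times). The cause was not tested.

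With 1 library or 1 replicate label left out, all genes called ranged over 3232 to 6234 for the course, 2956 to 5066 in late minus early, 1594 to 3555 in first day minus early, 908 to 2270 in late minus first day, 82 to 370 in middle minus first day, 191 to 961 at 30 h and 210 to 1722 at 54 h. The antagonists called ranged over 3 to 5 for the course, 1 to 2 higher and 2 to 4 lower in late minus early, 0 to 2 higher and 2 to 4 lower in first day minus early, 1 to 2 higher and 1 to 2 lower in late minus first day, and 0 to 1 higher or lower in middle minus first day and at 30 h, with 0 to 1 lower at 54 h. The course counts and the lower counts against early libraries again can include DKK1. DKK3 in late minus early ranged over -0.17 to 0.51 and FRZB over -0.12 to 0.50. The lowest counts came from leaving out a whole replicate label, which leaves fewer libraries. TPM hold no depth, so no limit on values at 0 can be given.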

Other observations

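Markers of further cell types were read in the same late minus early comparison, in which 14.3% of all tested genes were higher and 15.8% lower. Of 9 tested neural crest markers, 3 were higher (SOX9, SNAI2 and NGFR) and 1 lower (FOXD3, a share under that of all tested genes), and NGFR, a nerve growth factor receptor, was at 19.6 ± 6.64 TPM in late and 2.84 ± 2.39 TPM in early libraries (SD, n = 12 each). Of 9 mesenchyme and fibroblast markers, 5 were higher and 1 lower (PDGFRA, at 1.59 ± 1.55 TPM in late and 11.2 ± 4.03 TPM in early libraries). Of 6 paraxial mesoderm and somite markers, PAX3, which also marks the dorsal neural tube, was higher at 243.8 ± 75.6 TPM in late and 131.9 ± 29.6 TPM in early libraries, and MEOX1 and FOXC2 were lower. Of 5 endothelium and blood markers, KDR and TEK were higher and CDH5 was lower. Of 7 pluripotency markers, LIN28A and ZFP42 were lower and none was higher. The 1 tested floor plate and ventral marker, FOXA2, was lower.

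Across the 20 time-point means, the courses of SFRP5 and WIF1 had a Pearson r of 0.665, SFRP2 and SFRP5 0.505, and SFRP1 and SFRP5 -0.567. SFRP2 and DKK3 had an r of -0.350. These are descriptions over 20 times that share libraries.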
